A study of Mus musculus with 14 samples.

Results

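Granulosa cells (GCs) of antral follicles were compared between obese mutants and lean controls over both genetic models of the study at once, 7 mutant libraries against 7 control libraries, which are all 14 libraries of the series. The mutants were db/db females of the strain B6.BKS(D)-Leprdb/J (4 libraries), which lack the long form of the leptin receptor, and ob/ob females of the strain B6.Cg-Lepob/J (3 libraries), which lack leptin. Their controls, CT db (4 libraries) and CT ob (3 libraries), were lean littermates, labelled wild type although the column names of the count table read het, and the labels give no separate animal for each library. All groups were kept on chow to 12 wk of age, and each library was made from a pool of about 50 cells. Both mutations are carried by every cell of the body, so effects within GCs and effects of the obese state cannot be told apart. The question was which genes moved the same way when the hormone was lost and when its receptor was lost. It was put to the counts in 1 edgeR quasi-likelihood fit with the model as an additive factor, so that each mutant group was set against its own controls. Genes with an adjusted p (Benjamini-Hochberg, over all genes tested) no larger than 0.05 were called.

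Leptin is a hormone of fat tissue whose receptor signals through the kinase JAK2 and the transcription factor STAT3. Loss of either the hormone or the receptor leaves mice hyperphagic, obese and infertile. GCs surround the oocyte, convert androgens to oestrogens under follicle-stimulating hormone, and become progesterone-secreting luteal cells after ovulation. The enzyme encoded by Akr1c18 inactivates progesterone, and the receptor encoded by Ptgfr receives the prostaglandin signal that ends the life of the corpus luteum.

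The libraries held 2204686 to 8367593 counts on genes, and 3 counts, taken as the limit of detection, were worth 0.359 to 1.36 CPM (counts on the gene per 1000000 counts of the library). The db/db libraries were smaller than those of CT db and the ob/ob libraries larger than those of CT ob, so depth did not differ in 1 direction between mutants and controls. Granulosa markers summed to 20188 to 25403 CPM in db/db and 20124 to 29476 CPM in CT db, and to 19453 to 24527 CPM in ob/ob and 12326 to 17607 CPM in CT ob. In the ob model the mutants thus lay above the controls without overlap, with higher means for 8 of the 12 markers, while the db groups overlapped. Markers of oocytes summed to 44.7 to 1219 CPM, of theca and stroma to 68.9 to 427 CPM, of endothelium to 7.06 to 71.2 CPM and of leukocytes to 4.87 to 41.6 CPM, and the exact permutation tests within models of these sums and of 4 further marker lists gave two-sided p-values of 0.276 or more. Endothelial sums were 15.5 to 18.6 CPM in ob/ob and 28.1 to 71.2 CPM in CT ob, again without overlap. The part of these marker sums in the values of the ob model was not tested. The CT ob library obHet_65 had the highest endothelial sum and, among CT ob, the highest stromal and leukocyte sums (234 and 35.9 CPM). The 18S ribosomal RNA gene took 1.10 to 12.8% of counts in all groups but CT ob, where it took 6.0 to 24.5%. Lep had 0 to 3 counts and Lepr 0 to 17 counts in every library, so neither was tested and neither checks the labels. 

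Across both models 1 gene was called, Atrnl1, and genes tied to luteal cells were among those with the smallest p on the lower side. Of 12586 genes tested, it alone passed (0.00795% of those tested). At an unadjusted p under 0.05, 616 genes (4.89%) were higher and 465 (3.69%) lower in the mutants, and 9 genes had an adjusted p under 0.1. With DESeq2 on the same genes, 22 (0.175%) were called higher and 21 (0.167%) lower, of 12561 genes that received an adjusted p. Whether more genes moved the same way in both models or in opposite ways depended on the measure. Of 11216 genes tested in both models, 32 (0.285%) had an unadjusted p under 0.05 and were higher in both, 24 (0.214%) were lower in both, and 52 (0.464%) had opposite signs. Mutants and controls did not overlap in either model for 19 genes (0.151%) higher and 18 genes (0.143%) lower in both, and for 60 genes (0.477%) with opposite directions. With library totals in place of TMM in the fits of each model, 64 genes moved the same way and 34 in opposite ways. The interaction of model and genotype was called for no gene with edgeR (0% of those tested), and 1021 genes had an unadjusted p under 0.05 for it.

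**Figure D1:**
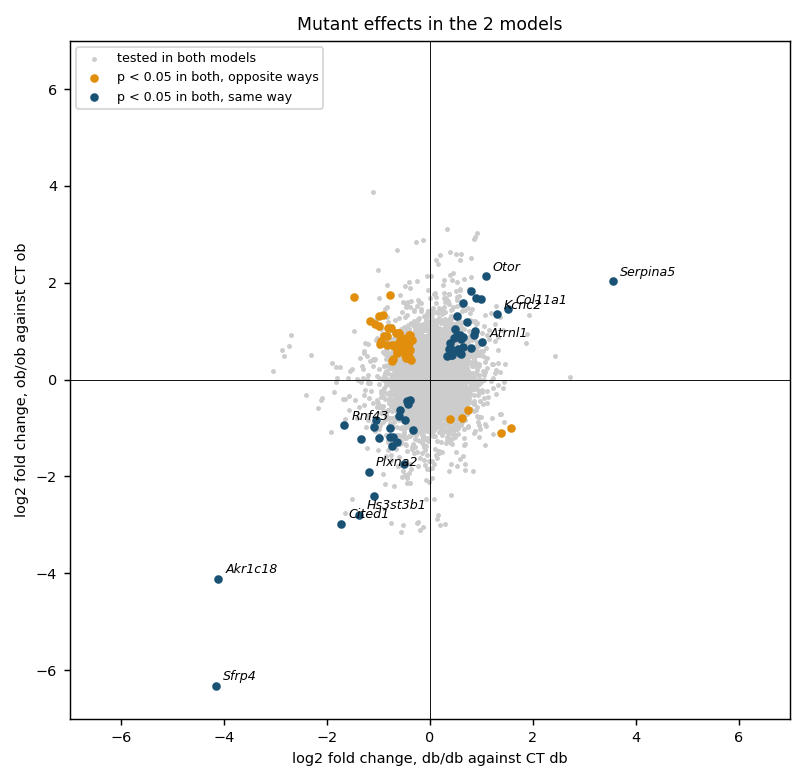
Log2 fold change in ob/ob against CT ob (vertical axis) plotted against that in db/db against CT db (horizontal axis) for the 11216 genes tested in both models. Blue points are the 56 genes with an unadjusted p under 0.05 in both models and the same sign, and orange points the 52 with opposite signs, of which 47 were lower in db/db and higher in ob/ob.

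Atrnl1, which encodes attractin-like 1, a membrane protein related to attractin, rose in the mutants of both models. Atrnl1 was at 134, 109, 126 and 115 CPM in db/db and at 46.9, 62.5, 65.1 and 63.9 CPM in CT db. In the other model it was at 70.9, 90.9 and 62.1 CPM in ob/ob and at 51.1, 44.9 and 34.3 CPM in CT ob. The lowest mutant library lay above the highest control library in each model. The additive fit gave a log2 fold change of 0.91 ± 0.13 (SE), adjusted p = 0.0275 by edgeR's quasi-likelihood test, higher in 7 of 7 mutant libraries than in every control of their own model. The db model alone gave 1.01 ± 0.15 and the ob model alone 0.77 ± 0.23, and the interaction had an adjusted p of 0.80 by edgeR. The exact permutation test over the 1400 arrangements within models gave a two-sided p of 0.00143, the smallest they can give. Atrnl1 was chosen by its p over the same libraries, so this permutation result is a description and no independent check. The adjusted p of Atrnl1 moved between 0.0146 and 0.0969 as each library was left out in turn, and it was called in 3 of 14 of these fits, those without obHOM_50, obHet_60 or obHet_68. The gene lies on chromosome 19 from 57598926 to 58121775 (GRCm39, plus strand). The 250 bases before its start are shown because it was the only called gene. They come from the RefSeq table (GRCm38.p6, chr19:57610784-57611033, plus strand) and hold 76.4% G and C and none of the motifs searched.

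Atrnl1: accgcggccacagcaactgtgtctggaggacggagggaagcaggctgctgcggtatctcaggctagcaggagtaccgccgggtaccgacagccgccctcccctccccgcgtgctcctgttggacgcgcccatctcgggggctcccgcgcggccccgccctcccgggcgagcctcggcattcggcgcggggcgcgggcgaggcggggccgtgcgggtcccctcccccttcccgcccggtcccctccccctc

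A further 11 genes completed the 12 of smallest p among those higher in the mutants, with adjusted p up to 0.264, so none of these passed the threshold. They were Gulo, Col11a1, Cacna2d1, Gm41271, Smpdl3b, Pdgfrb, Vezf1, Spopl, Tmf1, Otor and Adamts10. Gulo encodes the enzyme of the last step of vitamin C synthesis, which mice retain. Gulo was at 43.7, 45.8, 41.8 and 48.4 CPM in db/db and at 20.3, 22.3, 22.4 and 34.8 CPM in CT db. In the other model it was at 32.8, 36.9 and 43.6 CPM in ob/ob and at 21.4, 14.8 and 23.7 CPM in CT ob. All mutants lay above all controls of their model (log2 fold change of 0.88 ± 0.15 (SE), adjusted p = 0.0919). Col11a1 encodes a chain of a fibrillar collagen. Col11a1 was at 29.6, 33.7, 13.1 and 33.6 CPM in db/db and at 9.61, 8.56, 8 and 12.1 CPM in CT db. In the other model it was at 21, 25.3 and 18.1 CPM in ob/ob and at 3.47, 6.77 and 13.7 CPM in CT ob. The groups did not overlap in either model (log2 fold change of 1.5 ± 0.27 (SE), adjusted p = 0.0919), and this was the opposite direction to most members of its list given further on. Cacna2d1 encodes an auxiliary subunit of voltage-gated calcium channels. Cacna2d1 was at 64.7, 61.4, 71.8 and 88.9 CPM in db/db and at 51.1, 44.5, 42.8 and 60.0 CPM in CT db. In the other model it was at 68.1, 63.1 and 53.1 CPM in ob/ob and at 35.1, 34.6 and 27.8 CPM in CT ob. The groups again did not overlap (log2 fold change of 0.70 ± 0.13 (SE), adjusted p = 0.0919).

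Smpdl3b, a membrane-anchored sphingomyelinase-like enzyme, was at 90.4 to 141 CPM in db/db and 51.7 to 82.5 CPM in CT db, and at 65.1 to 108 CPM in ob/ob and 46.3 to 60.2 CPM in CT ob (log2 fold change of 0.73 ± 0.15 (SE), adjusted p = 0.192). Otor, which encodes the secreted protein otoraplin, was at 59.2 to 144 CPM in db/db and 25.7 to 59.5 CPM in CT db, so that the db groups overlapped at their edge. In the ob model Otor was at 58.9 to 80.7 CPM in ob/ob and 5.40 to 32.6 CPM in CT ob, without overlap (log2 fold change of 1.52 ± 0.34 (SE), adjusted p = 0.228). Pdgfrb, a receptor for platelet-derived growth factor that also marks stroma, had a log2 fold change of 1.67 ± 0.36 (SE), adjusted p = 0.192. Its CT ob values of 2.51, 8.02 and 2.06 CPM overlapped the 9.21, 16.1 and 6.68 CPM of ob/ob. The whole theca and stroma list summed to 100.1 to 427 CPM in db/db against 68.9 to 139 CPM in CT db, and to 75.6 to 128 CPM in ob/ob against 85.2 to 234 CPM in CT ob, so its direction was not shared by the 2 models, and its part in the result for Pdgfrb was not tested. Kit, the receptor for Kit ligand, was higher without passing (log2 fold change of 0.94 ± 0.22 (SE), adjusted p = 0.27), while 11 of the 12 tested members of the oocyte list it belongs to had lower values in the mutants. That list summed to 61.2 to 109 CPM in db/db against 44.7 to 296 CPM in CT db, and to 216 to 846 CPM in ob/ob against 108 to 1219 CPM in CT ob, and its part in the result for Kit was not tested. DESeq2 called 12 of the 12 lead genes on this side. Of the 12 lead genes on this side, 8 had no overlap in either model. Over all genes, DESeq2 called 0.175% higher, and 0.151% were higher without overlap in both models. The 12 were chosen by their p over the same libraries, so both counts of lead genes are a description.

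**Figure D2:**
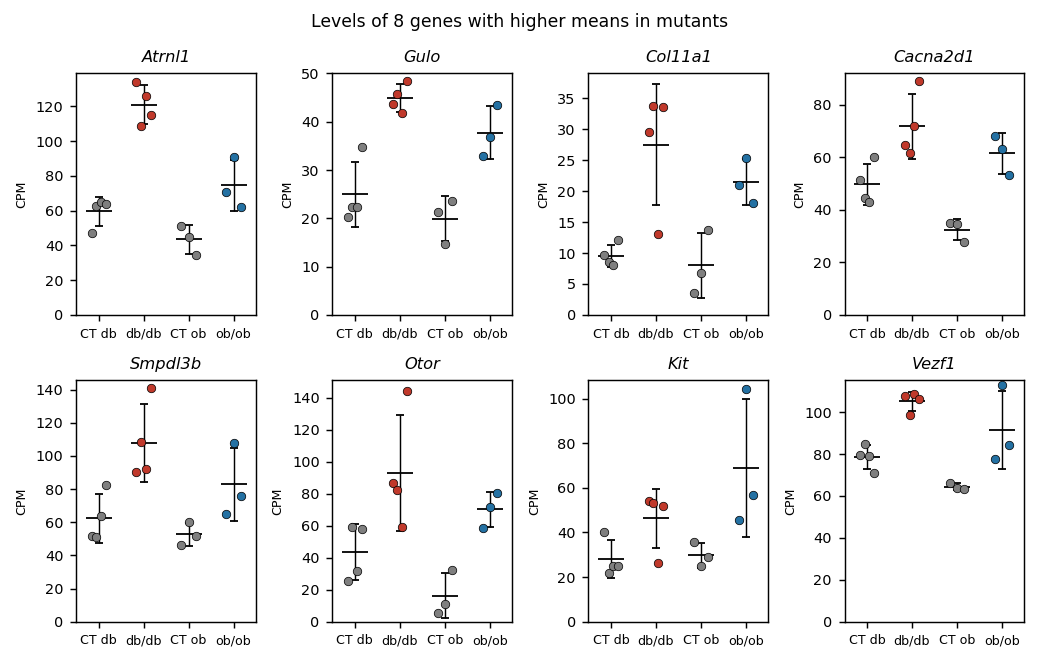
CPM per library (points) of 8 genes with higher mutant means, by group, with mean (bar) and SD (whisker, cut at 0). In db/db Atrnl1 stands at 109 to 134 CPM, all above the 46.9 to 65.1 CPM of CT db, and in ob/ob at 62.1 to 90.9 CPM, above the 34.3 to 51.1 CPM of CT ob.

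On the lower side none of the 12 genes of smallest p passed the threshold (adjusted p 0.0919 to 0.264). They were Dapk2, Plxna2, Sfrp4, Ptgfr, Akr1c18, Rnf43, Rnpep, Gm38036, Hs3st3b1, Chn2, Zfp503 and Lrp11, of which Sfrp4, Ptgfr and Akr1c18 belong to the luteal list. Gm38036 lies within Plxna2 on the same strand, and whether their counts are separate signals was not tested. Akr1c18, the progesterone-inactivating enzyme that the study names for both models, had no more than 3 counts in every db/db library and 2, 1 and 13 counts in ob/ob. Akr1c18 was at 0.857, 0.865, 1.31 and 0 CPM in db/db and at 3.39, 3.64, 37.5 and 6.86 CPM in CT db. In the other model it was at 0.347, 0.139 and 1.61 CPM in ob/ob and at 3.66, 30.8 and 4.12 CPM in CT ob. No mutant library reached a control library of its model, although 37.5 CPM in the CT db library het_69 and 30.8 CPM in the CT ob library obHet_65 stood far above the other controls. In db/db the fold was at least 10.6-fold lower than in CT db, taking 3 counts per library as the floor, and at least 3.83-fold lower when het_69 was left out. The additive fit gave a log2 fold change of -4.10 ± 0.79 (SE), adjusted p = 0.114 by edgeR, and the value depends on the prior count. It was -3.33 without obHet_65 (adjusted p = 0.297 by edgeR) and -3.505 without het_69 (adjusted p = 0.167 by edgeR). Akr1c18 shares sequence with its neighbours of the Akr1c family, between which the counting could split reads.

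Sfrp4 encodes a secreted antagonist of WNT proteins that is expressed in luteinising cells. Sfrp4 was at 1.28, 0.432, 1.74 and 2.2 CPM in db/db and at 20.6, 26.8, 33.1 and 26.3 CPM in CT db. In the other model it was at 1.91, 0.139 and 0.619 CPM in ob/ob and at 1.74, 199 and 4.12 CPM in CT ob. Every control of the db model lay above 20 CPM, whereas in CT ob the 199 CPM of obHet_65 stood alone and a control at 1.74 CPM lay below the highest ob/ob library. The additive fit gave a log2 fold change of -5.34 ± 0.97 (SE), adjusted p = 0.0919, and -3.29 (adjusted p = 0.0511) without obHet_65. Ptgfr, the receptor for prostaglandin F2 alpha, had no count in 6 of 7 mutant libraries and 0.314 CPM in the other. In CT db it was at 3.67, 19.3, 5.24 and 4.94 CPM, and in CT ob at 0, 68 and 1.03 CPM, of which 68.0 was obHet_65. The level in db/db was at least 6.86-fold lower than in CT db, or at least 3.82-fold without het_51. The adjusted p was 0.0919, and the fitted log2 value of -8.09 (-5.59 without obHet_65) is no bound. Cited1, a transcriptional coregulator, was at 9, 3.89, 8.7 and 12.2 CPM in db/db and 54, 28, 14.3 and 17.6 CPM in CT db, and at 13.7, 1.67 and 9.65 CPM in ob/ob and 17.9, 152 and 25.4 CPM in CT ob. Its groups did not overlap in either model (log2 fold change of -2.32 ± 0.55 (SE), adjusted p = 0.27), and its log2 fold change was -1.59 without obHet_65.

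Other genes lower in the mutants had no luteal role in the lists used here. Dapk2, a death-associated protein kinase, was at 0 to 0.865 CPM in db/db, at 0.828 to 6.21 CPM in CT db, at 0.696 to 1.98 CPM in ob/ob and at 6.94 to 13.8 CPM in CT ob (log2 fold change of -3.03 ± 0.53 (SE), adjusted p = 0.0919). Plxna2, a semaphorin receptor, was at 21.3 to 44.9 CPM in db/db and 32.6 to 103 CPM in CT db, and at 26.7 to 57.1 CPM in ob/ob and 122 to 185 CPM in CT ob (log2 fold change of -1.51 ± 0.26 (SE), adjusted p = 0.0919). Both genes had overlapping groups in the db model and none in the ob model. Rnf43, a ubiquitin ligase that removes Frizzled receptors from the cell surface, had no overlap in either model, at 1.71, 1.3, 2.18 and 3.14 CPM in db/db and 6.5, 6.21, 5.8 and 8.78 CPM in CT db. It was at 5.38, 3.9 and 8.29 CPM in ob/ob and 11.6, 12.5 and 9.61 CPM in CT ob (log2 fold change of -1.30 ± 0.27 (SE), adjusted p = 0.192). Hs3st3b1, a 3-O-sulfotransferase of heparan sulfate that the study also names for both models, was at 8.14, 10.4, 13.9 and 7.85 CPM in db/db and 34.2, 22.5, 14.3 and 32.6 CPM in CT db. In ob/ob it was at 4.17, 4.04 and 2.1 CPM and in CT ob at 36.4, 30.6 and 3.43 CPM. The control at 3.43 CPM lay within the range of ob/ob, and with all libraries the adjusted p was 0.192 (log2 fold change -1.98 ± 0.42 (SE)), against 0.0454 without that library. Without overlap in both models were 4 of the 12 lead genes on this side, Akr1c18, Rnf43, Rnpep and Zfp503, while Dapk2, Gm38036, Plxna2, Chn2, Sfrp4, Ptgfr, Hs3st3b1 and Lrp11 overlapped in 1 model. DESeq2 called 10 of the 12 and gave no adjusted p for Sfrp4 and Ptgfr. Over all genes, DESeq2 called 0.167% lower, and 0.143% were lower without overlap in both models. These counts too are a description, since the 12 were chosen by their p over the same libraries. Dapk2, Gm38036, Zfp503, Sfrp4, Ptgfr and Akr1c18 were at no more than 2.43 CPM in any mutant library. These genes passed the filter on expression through the controls alone, so their low mutant values are no independent support.

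**Figure D3:**
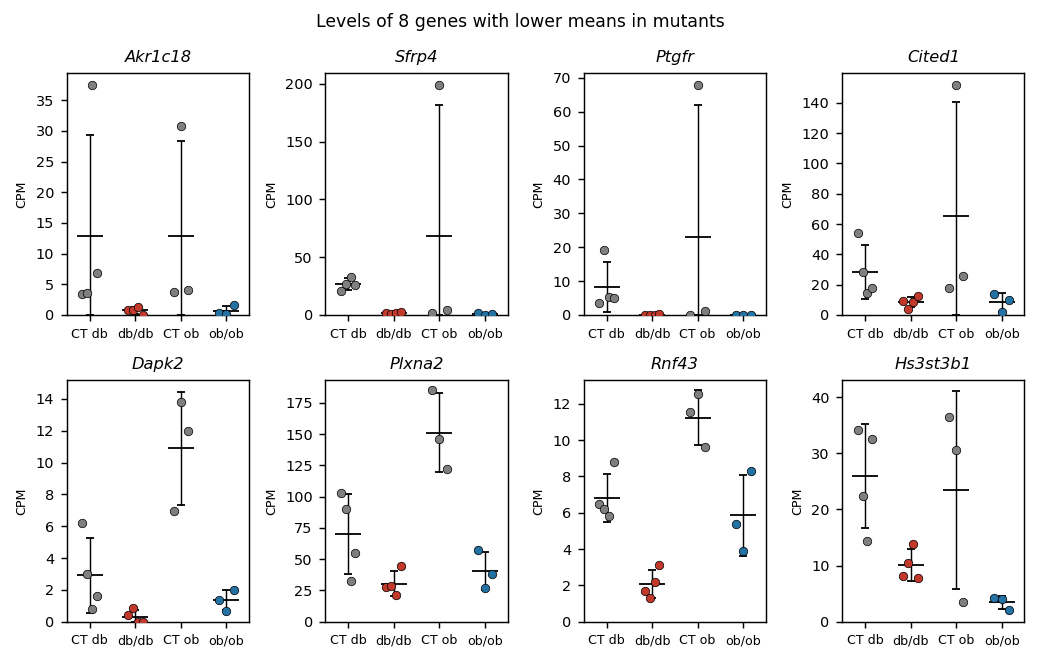
CPM per library (points) of 8 genes with lower mutant means, by group, with mean (bar) and SD (whisker, cut at 0). The highest CT ob point of Akr1c18 (30.8 CPM), Sfrp4 (199 CPM), Ptgfr (68.0 CPM) and Cited1 (152 CPM) is the same library, obHet_65.

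**Figure D4:**
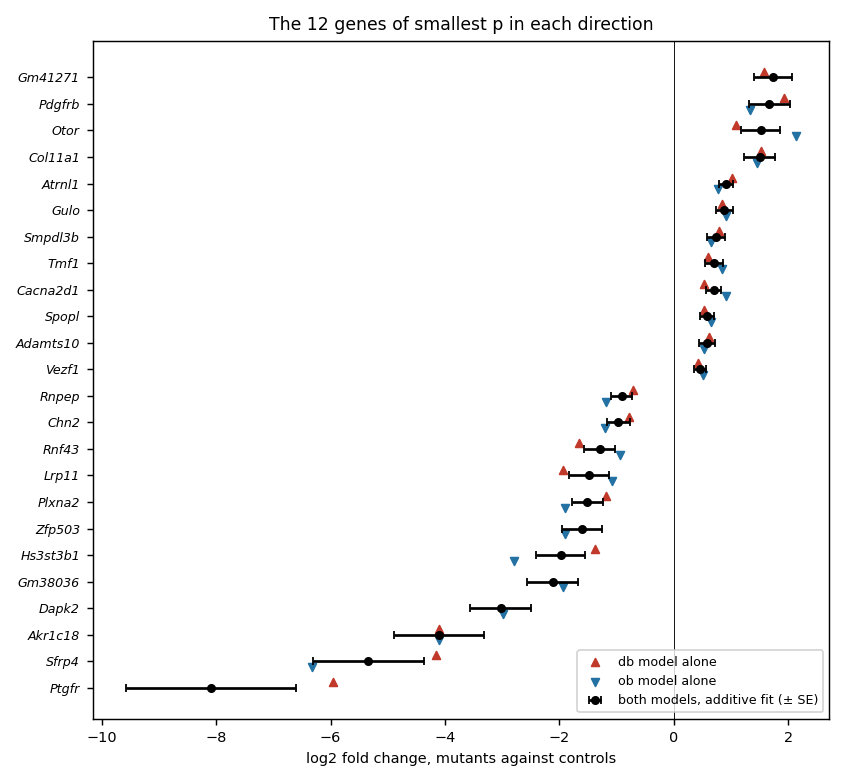
Log2 fold change of the 12 genes of smallest p in each direction, as the additive fit of both models (black, with SE) and with the db libraries (red) or the ob libraries (blue) alone. Atrnl1 alone passed the threshold, and Gm41271, Dapk2, Gm38036, Zfp503 and Ptgfr lack the value of a model in which they were not tested.

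The promoters of genes moved the same way were then searched for 4 kinds of site. These were the STAT motif TTCNNNGAA, the cAMP response element TGACGTCA or its short form TGACG, the SF-1 and LRH-1 site CAAGGTCA and the E-box CACGTG, on both strands, in 250 bases before to 50 after each start in the RefSeq table (GRCm38.p6). Each full element also holds the short form. Of the 56 genes, 41 had a promoter in the table, 24 of the 32 higher and 17 of the 24 lower. The STAT motif was in none of them and in 9.55% of the 27025 genes in the table. The short form was in 3 of 24 higher genes (12.5%) and 8 of 17 lower genes (47.1%), against 23.05% of all genes. The full element was in 1 higher gene and 0 lower genes (2.03% of all), the SF-1 and LRH-1 site in 0 higher and 2 lower genes (1.76% of all), and the E-box in 4 higher genes and 1 lower gene (8.09% of all). No test was made, and a match is a description of letters only. Shown are the 250 bases before the start for Cited1, which holds 2 of the sites (chrX:102250777-102251026, minus strand, 1 of its 3 listed starts), and for Hs3st3b1 and Cacna2d1, a lower and a higher gene that hold the short form (chr11:63922285-63922534, minus strand, and chr5:15934441-15934690, plus strand). Akr1c18 is shown (chr13:4150647-4150896, minus strand) because it is the luteal gene without overlap that the study names, and holds none of the sites. Capitals mark the sites found. No promoter of Sfrp4 or Gulo was in the table.

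Cited1: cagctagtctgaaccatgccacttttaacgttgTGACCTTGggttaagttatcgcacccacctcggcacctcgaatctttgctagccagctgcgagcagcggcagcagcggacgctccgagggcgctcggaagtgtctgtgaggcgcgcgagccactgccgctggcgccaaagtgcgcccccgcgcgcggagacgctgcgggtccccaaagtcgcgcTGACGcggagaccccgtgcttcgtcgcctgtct
Hs3st3b1: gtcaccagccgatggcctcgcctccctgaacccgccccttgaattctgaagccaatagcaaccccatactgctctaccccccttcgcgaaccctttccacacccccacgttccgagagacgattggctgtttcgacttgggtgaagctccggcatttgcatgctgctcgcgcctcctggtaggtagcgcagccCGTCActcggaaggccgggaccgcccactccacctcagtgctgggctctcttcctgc
Cacna2d1: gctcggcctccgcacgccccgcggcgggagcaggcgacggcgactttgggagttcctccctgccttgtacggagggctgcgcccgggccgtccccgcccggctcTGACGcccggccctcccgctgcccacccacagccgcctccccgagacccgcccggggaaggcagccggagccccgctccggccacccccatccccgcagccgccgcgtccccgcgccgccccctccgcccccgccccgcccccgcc
Akr1c18: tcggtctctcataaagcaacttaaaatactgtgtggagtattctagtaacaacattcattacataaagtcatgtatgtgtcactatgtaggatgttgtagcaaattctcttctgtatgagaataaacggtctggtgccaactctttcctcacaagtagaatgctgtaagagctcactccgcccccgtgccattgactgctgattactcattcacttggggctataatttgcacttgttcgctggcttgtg

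Gene lists of pathways were described by how many tested members were lower or higher at an unadjusted p under 0.05, beside 3.69% lower and 4.89% higher of all genes tested. The luteal list, with genes of progesterone degradation and luteal regression, had the largest share of lower members of the 24 lists (54.5%). Sfrp4, Ptgfr and Akr1c18 had at most 11, 1 and 13 counts in any mutant library and passed the filter on expression through the controls. Runx2 and Akr1c13 also passed it only with the controls counted. Of the members lower at p under 0.05, Cited1 alone would have passed on the mutants. The study had already named Akr1c18, Akr1c13 and Ptgfr as lower in db/db, so this share is a description only. Of 11 members tested, 6 were lower (Sfrp4, Ptgfr, Akr1c18, Cited1, Runx2 and Akr1c13) and 1 was higher (Cdkn1b, a cyclin-dependent kinase inhibitor, at 0.48 ± 0.19). The median log2 fold change was -1.69, against -0.0119 over all genes. Putting Akr1c18 and Ptgfr at their bounds could not move it, since both bounds lie below it. These bounds are of the db model alone, and neither gene had a bound in the ob model. Runx2, a transcription factor, was at 0.628 to 2.57 CPM in db/db and 2.19 to 13.3 CPM in CT db, and at 0.868 to 3.06 CPM in ob/ob and 1.35 to 9.03 CPM in CT ob. Akr1c13, an aldo-keto reductase beside Akr1c18, was at 0 to 1.26 CPM in db/db and 2.74 to 16.7 CPM in CT db, but at 1.95 to 14.7 CPM in ob/ob and 10.5 to 15.8 CPM in CT ob, where the groups overlapped. Lhcgr, the receptor for luteinising hormone, had a log2 fold change of -1.04 ± 0.63 (SE) with unadjusted p = 0.116, and Parm1, Prlr and Akr1c14 had unadjusted p above 0.05. By sign alone 8 of the 11 were lower and 3 higher, against 52.1% and 47.9% of all genes. The 8 members tested in both models had medians of -0.80 in db and -0.83 in ob. The whole list summed to 1051 to 1461 CPM in db/db and 1446 to 1890 CPM in CT db. The sums were 825 to 1491 CPM in ob/ob and 673.5 to 1220 CPM in CT ob, so the groups overlapped in both models. Without obHet_65 the number of members lower at p under 0.05 was again 6, with the list median then at -1.48. The number was 0 of 4 where at least 10 counts were required in every library, which left out 7 of the 11 members, and 4 to 8 under the other alternatives. The endothelial, stromal and leukocyte marker sums were high in that library, as given above, and their part in the luteal result was not tested. In such pools of cells, fewer cells of a type and less RNA per cell cannot be told apart. From stained ovary sections the paper reports that corpora lutea were absent in both mutants, unlike in controls. The part of this in the luteal values was not tested.

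Other lists gave small counts. In the basement membrane and collagen list 6 of 29 tested members were lower (Col12a1, Lamb2, Col16a1, Col4a1, Sparc and Col4a2) and 1 (Col11a1) higher, with a median of -0.22. Col4a1 and Col4a2, chains of basement membrane collagen IV, were at 70.5 and 47.9 CPM in obHet_65 and at no more than 16.1 and 8.24 CPM in every other library. The remaining CT ob libraries lay above the 0.278 to 3.47 CPM of Col4a1 in ob/ob, while its db groups overlapped. The endothelial marker sum was also highest in obHet_65, and its part in these values was not tested. Of the members of this list tested in both models, 15 of 22 had opposite signs in db and ob, against 48.5% of all genes tested in both. In the WNT list 5 of 28 were lower, namely Sfrp4, Rnf43, Wnt4 (a WNT ligand), Dvl1 (a signal transducer of the Frizzled receptors) and Fzd7, and Dkk3 was higher, with a median of -0.098. In the cell cycle and DNA replication list 6 of 37 were lower (Cdt1, Cdc45, Ccnd3, Pcna, Mcm2 and Mcm5) and 2 higher (Mki67 and Cenpf), with a median of -0.11. Cdt1, which licenses replication origins, had no overlap in either model and a log2 fold change of -0.46 ± 0.15 (SE), adjusted p = 0.458. Mki67, a proliferation antigen, had a log2 fold change of 0.50 ± 0.19 (SE), adjusted p = 0.511. The members of the list lower in both models numbered 19 of 37 and those higher in both 5, against 26.4% and 25.04% of all genes tested in both.

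Follicle growth genes included 3 of 18 with higher values at p under 0.05, namely Fst, which encodes follistatin, and the BMP receptors Bmpr2 and Bmpr1b, and none lower. Fst had a log2 fold change of 0.64 ± 0.23 (SE), adjusted p = 0.501, with 0.33 for db/db alone and 1.03 for ob/ob alone. The granulosa marker sum, which shares members with this list, was also higher in ob/ob than in CT ob, as given above. Bmpr2 had a log2 fold change of 0.73 ± 0.29 (SE), adjusted p = 0.529, and its 2 models differed at an unadjusted interaction p of 0.0478. In the heparan sulfate list Hs3st3b1 and its paralogue Hs3st3a1 were lower, and Sdc4, a cell surface proteoglycan, and B4galt7 were higher, of 29 tested. In the interferon and antigen presentation list 3 of 21 were higher (Stat2, Nlrc5 and Irf7). In the fatty acid list Fabp3, Fabp5 and Dgat2 were higher and Elovl2 lower of 34. In the insulin list 3 of 30 were higher (Gsk3b, Igf2r and Rheb) and Pik3r1, a regulatory subunit of PI3K, was lower. No member of the NLRP3 inflammasome and chemokine (10 tested), cholesterol (27), immediate early gene (21), mitochondrial genome (8), complex I (38) and ribosomal protein (81) lists had an unadjusted p under 0.05 by edgeR, nor was any called. Ribosomal protein genes had opposite signs in the 2 models for 60 of 81, and complex I genes for 27 of 37 tested in both, against 48.5% of all genes tested in both. Of 24 tested members of the leptin, JAK and STAT signalling list, 1 was higher and 1 lower, with a median of -0.037. Of its 22 members tested in both models, 6 were higher in both, 9 lower in both and 7 of opposite signs. The remaining lists (steroid synthesis, ovulation, matrix proteases, glycolysis, unfolded protein response, antioxidants, apoptosis and Hox clusters) each had at most 2 members past p under 0.05 in either direction. Among these were Cyp1b1 (lower), Cebpb (higher), Vcan (lower), Adamts5 and Adamts9 (higher), Fbp1 (higher), G6pdx and Pdha1 (lower), Herpud1 (higher), Pdia6 (lower), Mgst1 and Apaf1 (higher), Casp8 and Dapk2 (lower) and Hoxc6 (lower). Of the genes named in this paragraph, only Hs3st3b1 and Sdc4 were among the 56 moved the same way in both models. Adamts9 had log2 fold changes of 1.042 in db and 0.123 in ob. Those of Vcan were -0.3121 in db and -0.8518 in ob, and those of Fbp1 0.3829 and 1.196. Cyp1b1 was alike in both, at -0.503 in db and -0.5098 in ob (unadjusted p = 0.0769 by edgeR in ob), with overlapping groups in each model. The paper instead describes Cyp1b1 as tending to be lower in db/db but higher in ob/ob.

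**Figure D5:**
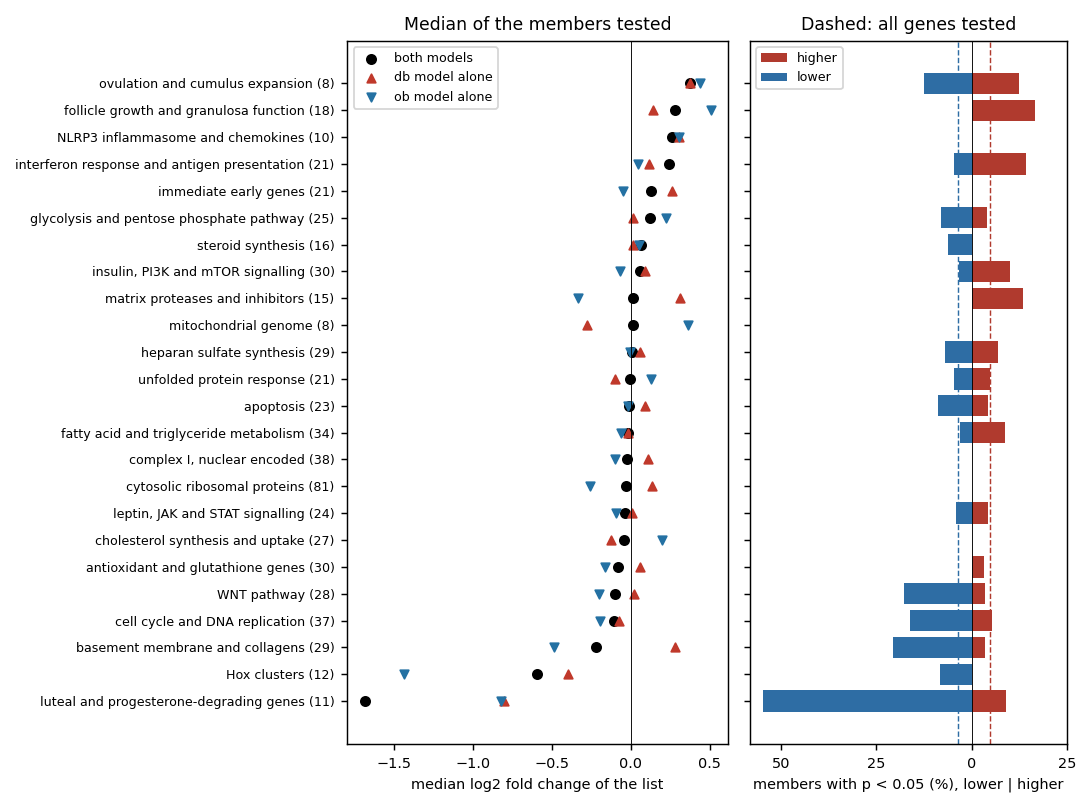
Left, median log2 fold change of each gene list over the members tested in the additive fit (black, number in brackets) and, over those tested in both models, in db (red) and ob (blue) alone. Right, percent of members with an unadjusted p under 0.05, lower to the left and higher to the right, with all genes tested as dashed lines. The luteal list has a median of -1.69.

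Among the 56 genes moved the same way in both models, the median log2 fold change was 0.73 in the 32 higher genes and -0.99 in the 24 lower genes. The values that chose them are the same ones, so these medians are a description. DESeq2 called 26 of the 56, beside 0.175% higher and 0.167% lower of all genes to which it gave an adjusted p. Mutants and controls did not overlap in either model for 16 of them, 9 higher (Atrnl1, Gulo, Col11a1, Cacna2d1, Smpdl3b, Vezf1, Spopl, Psma2 and Arl14ep) and 7 lower (Akr1c18, Rnf43, Rnpep, Cited1, Stx6, Asap2 and Stmp1). Over all genes tested, 0.151% were higher and 0.143% lower in this way. The 56 were chosen by p over the same libraries, so both counts are a description. The roles of the 16 range over a proteasome subunit (Psma2), an aminopeptidase (Rnpep) and a vesicle fusion protein (Stx6). Psma2 was at 790.3 to 1036 CPM in db/db and 683 to 754 CPM in CT db, and at 809 to 1039 CPM in ob/ob and 571 to 717 CPM in CT ob (log2 fold change of 0.40 ± 0.11 (SE), adjusted p = 0.346). The largest change among the 56, by the additive fit, was that of Sfrp4 on the lower side and of Serpina5, which encodes a secreted serine protease inhibitor, on the higher side. The rank of Sfrp4 rested on obHet_65, without which its log2 fold change was -3.29 and that of Akr1c18 -3.33. Serpina5 was at 104, 31.1, 3.05 and 33.9 CPM in db/db and 0, 1.71, 8.83 and 4.11 CPM in CT db, and at 38.4, 10.9 and 24.5 CPM in ob/ob and 0.386, 8.78 and 9.26 CPM in CT ob. One db/db library lay within the range of CT db, and the ob/ob library of lowest value was just above the highest CT ob library. Slc6a6, a taurine transporter, was higher with log2 fold changes of 0.65 in db and 1.58 in ob, and Apoa1, an apolipoprotein, was lower with -0.51 and -1.74. Serpina5, Slc6a6 and Apoa1 were chosen after their values were seen.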

How the data were processed

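The 14 libraries were Smart-seq2 type RNA-seq libraries of GCs, sequenced as single reads of 75 bases without molecular identifiers, so detection limits cover counting error only. The authors deposited whole-number counts per gene, without normalization. The paper's methods give cutadapt 1.18, STAR 2.7.10a, GRCm39 and featureCounts 2.0.1, whereas the submitters' processing notes list Trim Galore 0.6.2, HISAT2 2.1.0 and GRCm38, and the identifiers match GRCm39 annotation. The strand setting and the handling of multiply mapped reads are not given in the sources used here. A column was assigned to its group by its name and the study's list of libraries. The study's own comparisons used DESeq2 within each model.

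Counts were tested with edgeR 4.0.16 in R 4.3.3 (quasi-likelihood F-test, TMM, filterByExpr with minimum count 10 and total 15), with model and genotype as additive factors. Each model was also fitted alone, and the interaction was tested in a fit of 4 groups. P-values measure the spread between these libraries, which may be technical. CPM used TMM-scaled totals, and log2 CPM a prior count of 2. Of 55414 identifiers, 98.8% had a symbol. Named were the 12 genes of smallest p in each direction, up to 3 genes of smallest p in each list, genes moved the same way without overlap, and Akr1c18 and Hs3st3b1. Members and lists were chosen with earlier results of these data known. Alternatives were DESeq2 1.42.0, limma-voom (limma 3.58.1), other normalizations, filters and models, downsampling, and leaving out each library. Results for 1 listed gene are not reported here.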

Additional observations from a re-analysis of the deposited data

Results flagged for a closer look

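A library that stood apart from the other 3 of its group, by a gap larger than Dixon's 95% critical value, was found 15 times over 194 groups of gene levels and marker sums (7.73%), and about 1 in 20 groups is expected to give such a gap by chance. Groups of 3 libraries were not tested. In CT db, het_37 stood low for Atrnl1 (46.9 CPM, the others 62.5 to 65.1) and high for Cdc45 (121.8 CPM), Akr1c13 (16.67 CPM) and Wnt4 (12.43 CPM). The library het_51 stood high for Ptgfr (19.27 CPM), Runx2 (13.27 CPM) and Fbp1 (36.61 CPM), and low for Col4a2 (0.4282 CPM). The library het_69 stood high for Akr1c18 (37.54 CPM). The library het_75 stood high for Gulo (34.83 CPM) and low for Vcan (178 CPM). In db/db, HOM_24 stood high for Wnt4 (7.284 CPM) and for the summed surface epithelium markers (68.55 CPM), HOM_68 stood low for Kit (26.55 CPM), and HOM_81 was the only library with a count of Ptgfr (0.314 CPM). Of the luteal genes, Akr1c18, Akr1c13, Ptgfr and Runx2 each had its highest CT db value in such a library, and these were 3 different libraries.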

How the results depend on the processing

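The count of called genes was 1 and was moved by several choices. It was 43 with DESeq2, 3 with library totals only, 384 without a filter, 2 with the mean effect of a 4-group fit and 0 without the model factor. It was 1 under the other 8 alternatives tried. Leaving out each library in turn gave 0 to 6 called genes, 0 for 9 of the 14 libraries, 3 without the CT ob library obHet_60 and 6 without obHet_68. The 56 genes moved the same way became 9 at an unadjusted p under 0.01 (4 in opposite ways) and 52 to 71 under the other alternatives. With a library left out they numbered 30 (without the ob/ob library obHOM_41) to 106 (without the db/db library HOM_24). Over 66 named genes, no log2 fold change changed sign under any alternative, 12 calls were lost and 72 gained. The luteal median was 0.147, with 0 members lower at an unadjusted p under 0.05 by edgeR, when at least 10 counts were required in every library, which left 4 members, and -1.16 without the model factor. It ranged from -1.84 to -1.25 as each library was left out. These luteal alternatives were chosen after seeing the data. The cause of the other shifts was not tested. No paired analysis was possible because the columns carry no replicate number. Depth limits genes near 3 counts, such as Ptgfr in the mutants and Akr1c18 and Dapk2 in db/db.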
